A study of Mus musculus with 38 samples.

Results

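The MAP kinase phosphatases are dual-specificity phosphatases that switch off MAP kinases. Here 9 of their genes (Dusp1, Dusp2, Dusp4, Dusp5, Dusp6, Dusp7, Dusp9, Dusp10 and Dusp16) were followed by RNA sequencing. They were picked by symbol from a deposited table of 25965 mouse genes, and the choice used no measured value. The study asked how inhibition of MEK and of GSK3, separately and jointly, changes DNA methylation and transcription in mouse embryonic stem cells. All cells were of the XY line E14 (129/Ola), grown on gelatin without feeders, and every medium held LIF (leukaemia inhibitory factor). All cultures were started in serum medium.

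The RNA libraries form 5 groups. S/L is serum with LIF and no inhibitor (8 days, n = 3). MEKi/L is N2B27, a defined serum-free base, with LIF and 1 μM of the MEK inhibitor PD03259010 as the labels spell it (8 days, n = 3). GSK3i/L is the same base with LIF and 3 μM of the GSK3 inhibitor CHIR99021, sampled at 8 days (n = 3) and at 24 days (n = 2). 2i/L is the same base with LIF and both inhibitors at those doses (8 days, n = 3). No group in N2B27 and LIF without an inhibitor was analysed here. In a comparison with S/L, the loss of serum, the new base medium and the inhibitor therefore cannot be told apart. The series names its RNA samples biological triplicates, and all of them come from 1 cell line.

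MAP kinases such as ERK, JNK and p38 are active when a threonine and a tyrosine of their activation loop both carry phosphate, and MAP kinase phosphatases remove both. Several of these phosphatases are transcribed in response to ERK itself and so close a negative feedback loop. In mouse embryonic stem cells, FGF4 signalling through MEK and ERK primes cells to leave naive pluripotency, and MEK inhibition blocks that step. CHIR99021 mimics Wnt signalling by stabilising beta-catenin. The family is usually sorted into nuclear inducible members (Dusp1, Dusp2, Dusp4 and Dusp5), cytoplasmic members selective for ERK (Dusp6, Dusp7 and Dusp9) and members that prefer JNK and p38 (Dusp10 and Dusp16). JNK and p38 are the MAP kinases of stress responses.

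Upstream sequence is shown for 3 members whose levels took different courses over the media described further on. Dusp5 was lower in each serum-free medium than in serum, Dusp6 was lowest in the libraries with the MEK inhibitor, and Dusp1 was called higher in 2i/L than in serum. The sequences are from RefSeq on build GRCm38.p6 and run 5′ to 3′ on the gene's own strand. They stop before whichever comes first of the RefSeq start and the start in the deposited table. RefSeq windows were found for 7 of the 9 members, and Dusp4 and Dusp9 are named only.
Dusp5, chr19:53528895-53529108, plus strand: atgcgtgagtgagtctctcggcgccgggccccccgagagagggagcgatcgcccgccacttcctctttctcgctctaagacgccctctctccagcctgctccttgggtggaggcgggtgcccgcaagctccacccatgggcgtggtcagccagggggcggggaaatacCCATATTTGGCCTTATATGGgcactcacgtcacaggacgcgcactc
Dusp1, chr17:26508520-26508722, minus strand: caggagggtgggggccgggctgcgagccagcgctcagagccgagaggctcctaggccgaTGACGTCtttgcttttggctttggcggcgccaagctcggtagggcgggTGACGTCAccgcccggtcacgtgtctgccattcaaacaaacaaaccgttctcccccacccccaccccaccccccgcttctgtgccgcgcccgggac
Dusp6, chr10:99262981-99263230, plus strand: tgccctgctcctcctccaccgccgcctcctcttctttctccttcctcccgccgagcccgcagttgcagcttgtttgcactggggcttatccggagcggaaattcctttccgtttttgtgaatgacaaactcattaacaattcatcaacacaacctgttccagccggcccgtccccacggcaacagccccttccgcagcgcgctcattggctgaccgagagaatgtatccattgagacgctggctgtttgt

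Capitals mark matches to motifs that were chosen after the windows had been read and were searched on both strands. In Dusp5 they are 2 adjoining CArG boxes, the sequence bound by serum response factor, which begin 82 and 72 bases before the RefSeq start. In Dusp1 they are 2 copies of TGACGTC, the core of the cyclic AMP response element, 191 and 143 bases before the start, and the nearer copy is the full TGACGTCA. Over 32851 mouse windows that run from 250 bases before to 50 bases after a start, 1.63% held a CArG box, 3.21% held TGACGTC and 1.79% held TGACGTCA, which contains it. None of the 7 members' windows held the AP-1 letters TGACTCA or TGAGTCA (5.2% of all windows), the ETS letters CCGGAAG (8.86%) or the TCF/LEF letters CTTTGA (16.0%). These are matches of letters in a short window, not measured binding.

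Levels are given as RPM, reads per gene scaled to the same round total in every library, and the differences tested are between group means of log2 RPM, written with their standard error (SE). A gene was called when limma's Benjamini-Hochberg adjusted p was under 0.05 over 14980 tested genes, with no minimum fold. All 9 members were tested, but Dusp2 passed the filter (0.5 RPM in at least 3 libraries) only through serum: it reached 0.5 RPM in 4 libraries, of which 1 was outside S/L. The 24-day GSK3i/L, the MEKi/L and the 2i/L libraries (8 in all) hold plain log2 RPM with 10550000 to 15760000 reads, and the 6 libraries of S/L and GSK3i/L at 8 days, with about 8080000 to 18410000 reads, hold values that look matched to 1 shared distribution. That is read from the values, and no label or header states it. At 8 days every library with the MEK inhibitor is plain and every library without it looks matched. In those comparisons the inhibitor and the column treatment therefore cannot be told apart. A score of long minus short transcripts, used as a sign of RNA integrity, lay between −3.4 and −2.93 in S/L and between −0.2 and 0.04 in 2i/L. The score lay between −4.12 and −3.52 in the 24-day group. Its short transcripts all come from respiratory chain and ATP synthase genes. In the score, RNA integrity and a change of those genes with the medium therefore cannot be told apart. MEKi/L (−2.4 to 0.22) and 8-day GSK3i/L (−3.17 to −0.06) were spread, with replicate 1 the highest of each. All 8 embryonic stem cell markers were above 5 RPM in every library. Fibroblast and mesenchyme markers (7 genes) summed to 106 to 248 RPM in GSK3i/L at 8 days against 6.44 to 16.8 RPM in all other groups. Primitive endoderm markers (7 genes) summed to 13.2 to 49.4 RPM in GSK3i/L at 24 days and to 4.34 to 21 RPM elsewhere. Neural markers (5 in the table) summed to 23.5 to 227 RPM and trophoblast markers (6) to 43.9 to 117 RPM over all libraries.

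**Figure D1:**
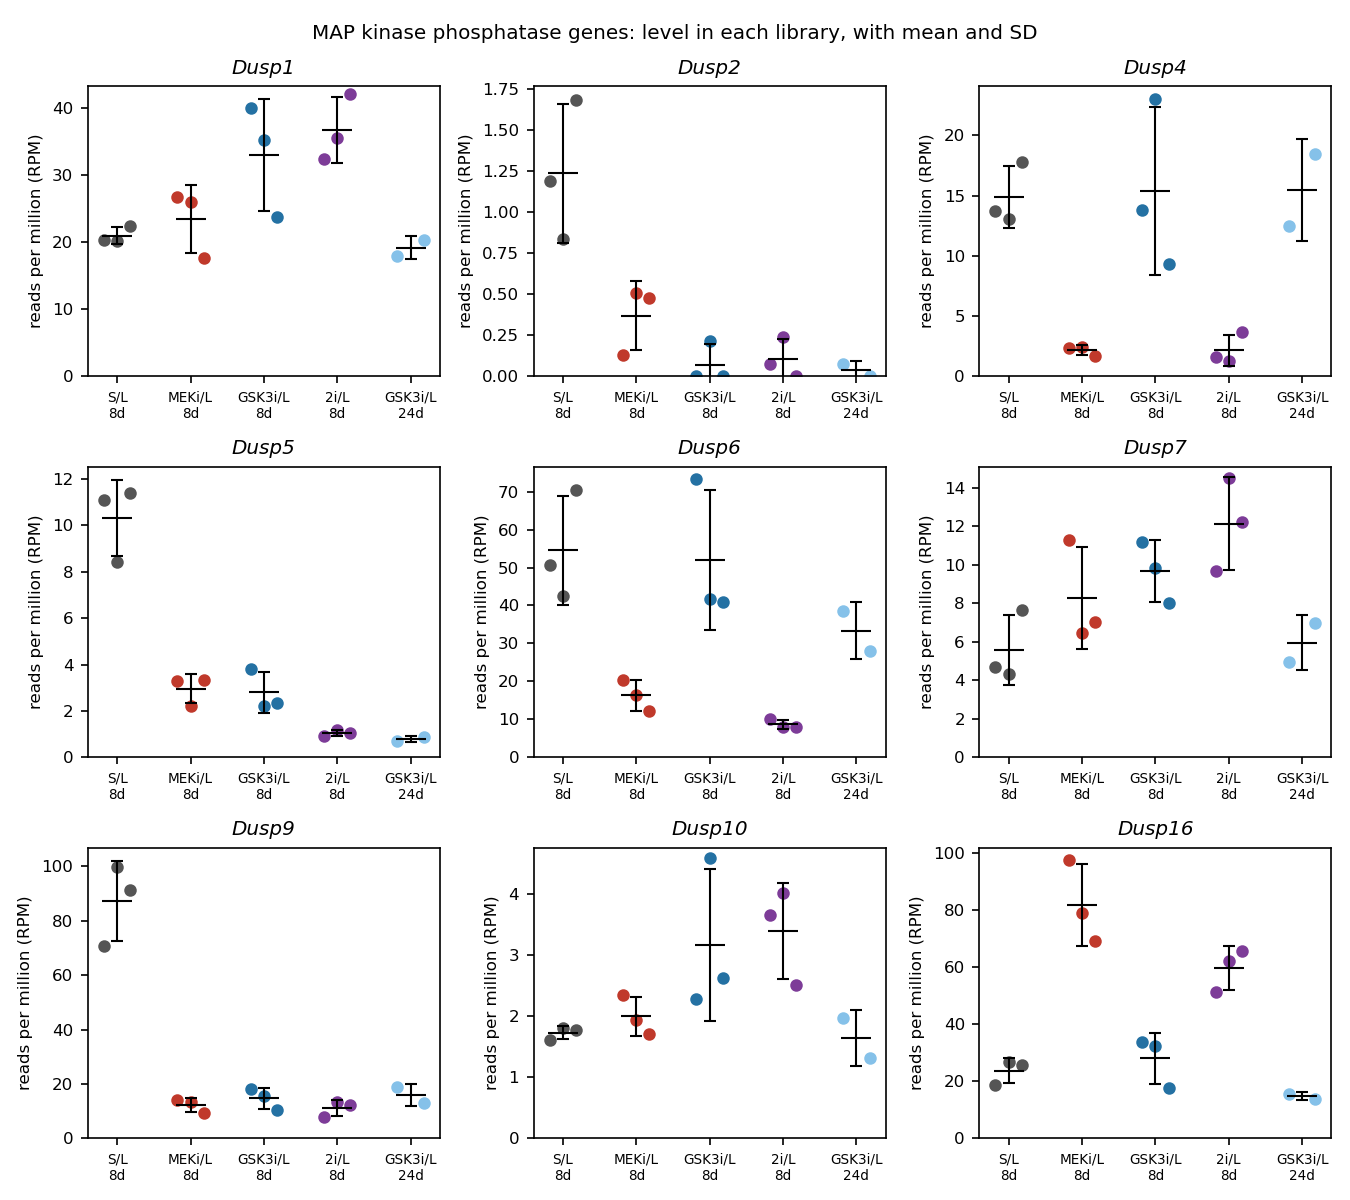
Level of each MAP kinase phosphatase gene in RPM (linear axis from 0) in each of the 14 libraries, by medium and day; points are libraries, and bars are the mean and SD of a group. Dusp4 stood at 1.26 to 3.64 RPM in the 6 libraries with the MEK inhibitor and at 9.33 to 23.0 RPM in the other 8, and Dusp9 stood at 70.8 to 99.6 RPM in serum and at 8.0 to 18.9 RPM in the rest.

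Dusp4 encodes a nuclear phosphatase (MKP-2) of ERK and JNK whose transcription ERK induces. Its gene lies at chr8:34807297-34819894 on the plus strand of GRCm38, the build of all gene positions here. Its levels were 13.7, 13.1 and 17.8 RPM in serum, 13.8, 23.0 and 9.33 RPM after 8 days of GSK3i/L, and 12.5 and 18.5 RPM after 24 days. With the MEK inhibitor they were 2.35, 2.45 and 1.71 RPM in MEKi/L and 1.6, 1.26 and 3.64 RPM in 2i/L. Each library with the MEK inhibitor was below each library without it. Dusp4 was lower in MEKi/L than in GSK3i/L by a log2 difference of −2.75 ± 0.39 (SE; adjusted p = 0.000183), which is 6.72-fold. In 2i/L it was lower than in GSK3i/L by −2.89 ± 0.39 (adjusted p = 0.000118). Against serum it was lower in MEKi/L (−2.78 ± 0.39, adjusted p = 8.18e-05) and in 2i/L (−2.92 ± 0.39, adjusted p = 2.8e-05). GSK3i/L was not separated from serum (−0.03, 95% interval −0.86 to 0.79), and 2i/L was not separated from MEKi/L (−0.14, −0.96 to 0.69). In this and every later result, fewer cells with a transcript and less of it per cell cannot be told apart.

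Dusp6 encodes the cytoplasmic, ERK-selective phosphatase MKP-3, a feedback target of FGF and ERK in many tissues (chr10:99263231-99267488, plus strand). Serum libraries held 50.6, 42.5 and 70.5 RPM, GSK3i/L 73.2, 41.7 and 40.9 RPM at 8 days, and 38.6 and 28.0 RPM at 24 days. MEKi/L held 20.3, 16.4 and 12.2 RPM, and 2i/L held 10.1, 7.9 and 8.07 RPM. As with Dusp4, all libraries with the MEK inhibitor lay below all without it, and here 2i/L also lay below MEKi/L. Dusp6 was lower than in GSK3i/L by −1.65 ± 0.27 in MEKi/L (adjusted p = 0.000561) and by −2.53 ± 0.27 in 2i/L (adjusted p = 1.84e-05). Between 2i/L and MEKi/L the difference was −0.89 ± 0.27 (adjusted p = 0.043), 1.85-fold. That call ended in 9 of 26 alternative fits. Without replicate 1 of MEKi/L the difference was −0.71 (adjusted p = 0.074), and without replicate 2 of 2i/L it was −0.82 (adjusted p = 0.14). Against serum, Dusp6 was lower by −1.74 ± 0.27 in MEKi/L (adjusted p = 0.00019) and by −2.63 ± 0.27 in 2i/L (adjusted p = 2.96e-06), whereas GSK3i/L was not separated from serum (−0.09, 95% interval −0.67 to 0.48).

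Dusp16 encodes MKP-7, which prefers JNK and p38 (chr6:134715473-134792625, minus strand). MEKi/L held 97.5, 78.9 and 69.1 RPM and 2i/L held 51.1, 62.2 and 65.6 RPM. GSK3i/L held 33.8, 32.4 and 17.8 RPM at 8 days and 15.7 and 13.8 RPM at 24 days, and S/L held 18.8, 26.6 and 25.7 RPM. The 6 libraries with the MEK inhibitor were above the 8 without it, and MEKi/L was above 2i/L in each library. Dusp16 was higher than in GSK3i/L by 1.59 ± 0.24 in MEKi/L (adjusted p = 0.000309), which is 3.01-fold, and by 1.14 ± 0.24 in 2i/L (adjusted p = 0.00324). Against serum it was higher by 1.79 ± 0.24 in MEKi/L (adjusted p = 5.95e-05) and by 1.34 ± 0.24 in 2i/L (adjusted p = 0.000304). With the long-minus-short score in the fit, the difference of 2i/L from serum was 0.66 (adjusted p = 0.066). The score itself differs between those groups in every library. The difference between 2i/L and MEKi/L was not called (−0.45 ± 0.24, adjusted p = 0.205), but was called with the score in the fit (−0.75, adjusted p = 0.013).

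**Figure D2:**
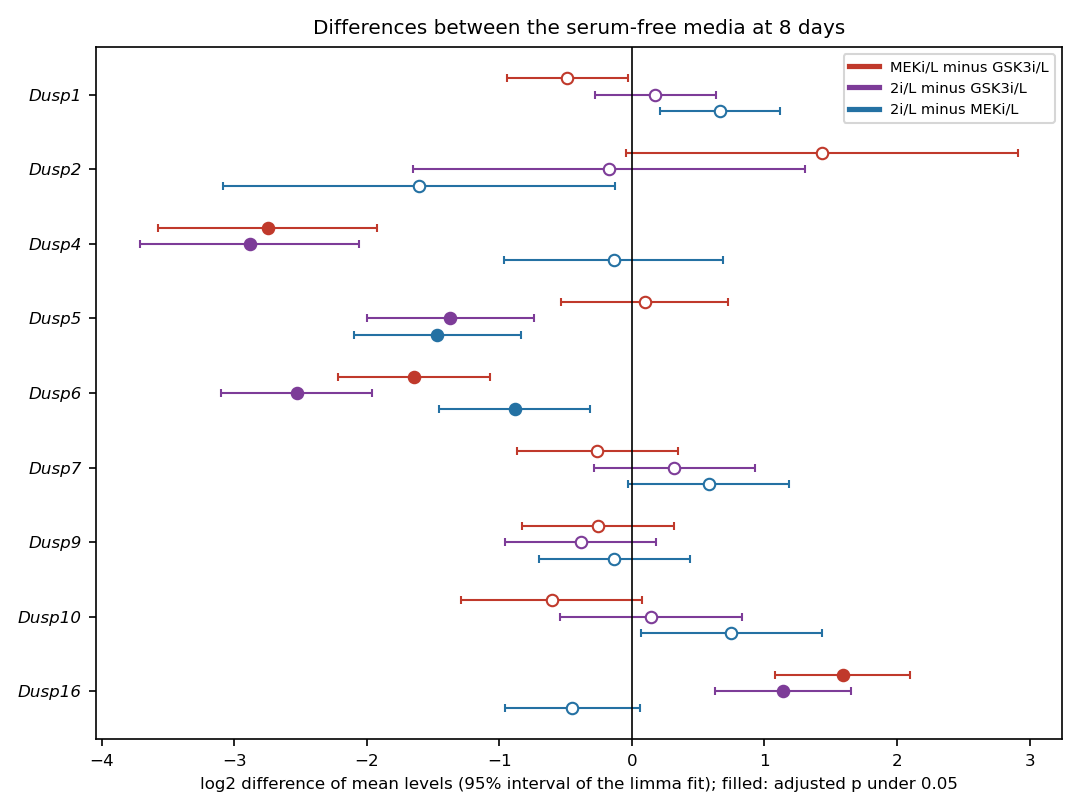
Log2 difference between the serum-free media at 8 days for each gene (points, limma estimate; bars, 95% interval; filled points, adjusted p under 0.05). Dusp4 and Dusp6 lie left of 0 and Dusp16 right of 0 in both comparisons of MEK inhibitor media with GSK3i/L, and Dusp5 is lower in 2i/L than in either single-inhibitor medium.

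Dusp5 encodes a nuclear phosphatase specific for ERK (chr19:53529109-53542431, plus strand), and its CArG boxes are printed above. It was highest in serum, at 11.1, 8.42 and 11.4 RPM. MEKi/L held 3.3, 2.23 and 3.32 RPM, and GSK3i/L at 8 days held 3.82, 2.21 and 2.36 RPM, so the single inhibitors overlapped. 2i/L held 0.915, 1.19 and 1.06 RPM and GSK3i/L at 24 days held 0.684 and 0.881 RPM, below every other library. Against serum Dusp5 was lower by −1.82 ± 0.29 in MEKi/L (adjusted p = 0.000297), by −1.91 ± 0.29 in GSK3i/L (adjusted p = 0.000333) and by −3.29 ± 0.29 in 2i/L (adjusted p = 8.75e-07). MEKi/L and GSK3i/L were not separated (0.10, 95% interval −0.53 to 0.73). 2i/L was lower than MEKi/L by −1.47 ± 0.29 (adjusted p = 0.00485), a comparison within the plain columns that kept its call in every alternative run. It was lower than GSK3i/L by −1.37 ± 0.29 (adjusted p = 0.00374) at 8 days. With the 24-day libraries in place of the 8-day ones, which was chosen after seeing the data and keeps the comparison within the plain columns, the sign turned (0.43, adjusted p = 0.27), and MEKi/L stood above GSK3i/L by 1.90 ± 0.33 (adjusted p = 0.00063).

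Dusp9 encodes the cytoplasmic ERK phosphatase MKP-4 and is X-linked (chrX:73639419-73643514, plus strand). In mouse embryonic stem cells it is known as a target of BMP signalling. Serum libraries held 70.8, 99.6 and 91.3 RPM. MEKi/L held 14.1, 13.4 and 9.19 RPM, 2i/L 8.0, 13.4 and 12.2 RPM, and GSK3i/L 18, 15.7 and 10.4 RPM at 8 days and 18.9 and 13.0 RPM at 24 days. The highest serum-free library (18.9 RPM) was below the lowest serum library (70.8 RPM), and the serum-free groups overlapped each other in level. Dusp9 was lower than in serum by −2.85 ± 0.27 in MEKi/L (adjusted p = 3.23e-06), by −2.59 ± 0.27 in GSK3i/L (adjusted p = 1.36e-05) and by −2.98 ± 0.27 in 2i/L (adjusted p = 9.49e-07), which is 7.19-fold, 6.02-fold and 7.88-fold. Among the serum-free media at 8 days none of the 3 differences was called. They were −0.26 for MEKi/L against GSK3i/L (95% interval −0.83 to 0.32), −0.39 for 2i/L against GSK3i/L (−0.96 to 0.18) and −0.13 for 2i/L against MEKi/L (−0.70 to 0.44). All 3 comparisons with serum use the same 3 serum libraries.

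**Figure D3:**
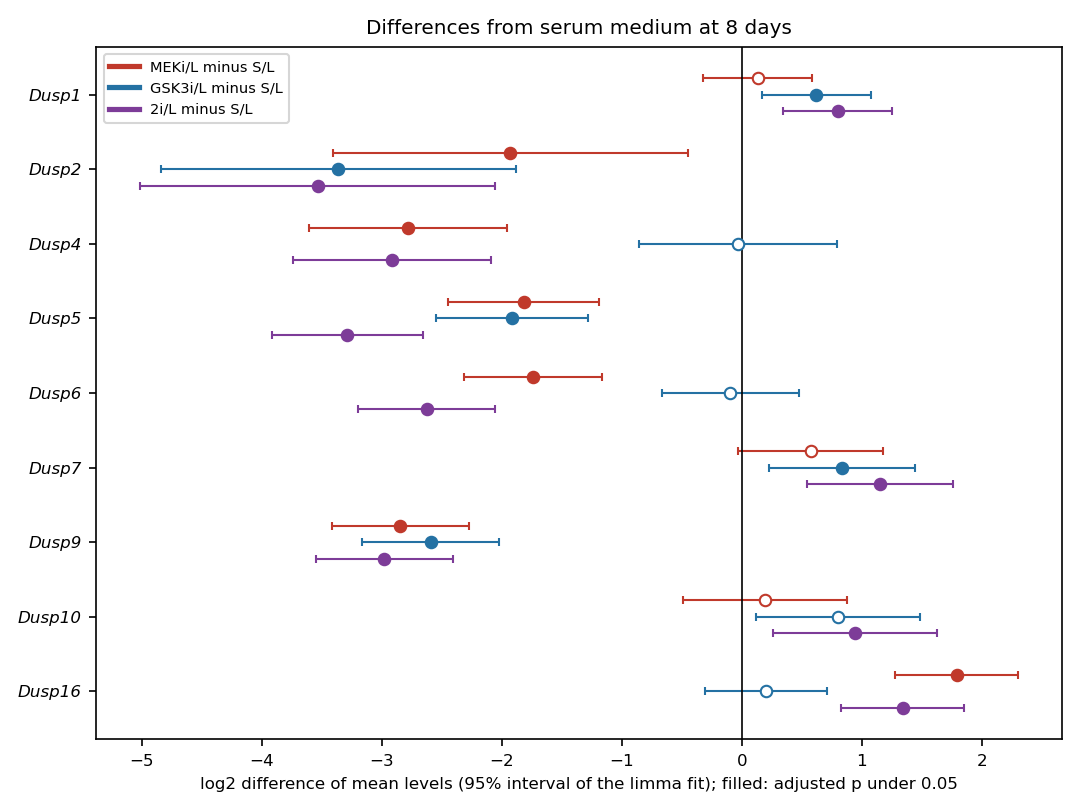
Log2 difference of each serum-free medium from serum at 8 days (points, limma estimate; bars, 95% interval; filled points, adjusted p under 0.05). Dusp2, Dusp5 and Dusp9 lie left of 0 in all 3 media, while Dusp4 and Dusp6 do so in MEKi/L and 2i/L and sit at −0.03 and −0.09 in GSK3i/L. Dusp2 entered the fit through serum, and its filled points are not read as tests.

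Dusp2 encodes the nuclear phosphatase PAC-1, best known from activated immune cells (chr2:127336159-127338376, plus strand). It was a low transcript throughout. Serum libraries held 1.19, 0.838 and 1.68 RPM and MEKi/L 0.127, 0.504 and 0.474 RPM. In 2i/L the values were 0.0762, 0.237 and 0 RPM. GSK3i/L held 0, 0.215 and 0 RPM at 8 days and 0.076 and 0 RPM at 24 days. Over the libraries of a group this came to 40 reads in S/L and 14 in MEKi/L. It came to 4 in 2i/L, and to 2 at 8 days and 1 at 24 days of GSK3i/L. Set against depth, MEKi/L had 0.24 of the serum level (95% interval 0.12 to 0.45), 2i/L 0.0673 (0.0175 to 0.186) and GSK3i/L at 8 days 0.0348 (0.00407 to 0.134). These intervals are exact for the reads pooled over a group and cover counting error only, not variation between libraries. They use approximate depths for the S/L and 8-day GSK3i/L libraries. Like the fitted differences that follow, they are a description, and no test is read from them. The fitted differences from serum were −1.93 ± 0.69 in MEKi/L, −3.36 ± 0.69 in GSK3i/L and −3.53 ± 0.69 in 2i/L. They are a description: the filter let Dusp2 in through serum, so no test is read from them. Fitted values with 0 reads rest on the small number the table lists there, 0.9 of a read in the plain columns. Without replicate 1 of MEKi/L its difference was −1.28.

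Dusp1 encodes MKP-1, an immediate early nuclear phosphatase of p38, JNK and ERK (chr17:26505590-26508519, minus strand), whose upstream sequence with its TGACGTC matches is printed above. Its levels were 20.4, 20.2 and 22.4 RPM in S/L, 26.7, 26.0 and 17.6 RPM in MEKi/L and 32.5, 35.6 and 42.1 RPM in 2i/L. GSK3i/L held 40.0, 35.3 and 23.8 RPM at 8 days and 18 and 20.4 RPM at 24 days. 2i/L lay above serum and MEKi/L in each library, and GSK3i/L at 8 days overlapped both 2i/L and MEKi/L. Dusp1 was called higher than serum in 2i/L (0.80 ± 0.21, adjusted p = 0.00487) and in GSK3i/L (0.62 ± 0.21, adjusted p = 0.0392), and was not separated from serum in MEKi/L (0.13, 95% interval −0.32 to 0.59). The call in GSK3i/L ended in 12 of 26 alternatives, among them the fit with the score (0.38, adjusted p = 0.12) and each fit without 1 of the 3 serum libraries or without replicate 1 (0.47, adjusted p = 0.16) or 2 (0.56, adjusted p = 0.12) of GSK3i/L. With the score in the fit, the difference of 2i/L from serum was 0.26 (adjusted p = 0.47). MEKi/L against GSK3i/L was not called (−0.49 ± 0.21, adjusted p = 0.139) but was called under quantile normalization (−0.64, adjusted p = 0.036), median centring (−0.66, adjusted p = 0.031) and trimmed mean scaling (−0.60, adjusted p = 0.039). 2i/L against MEKi/L missed the threshold (0.66 ± 0.21, adjusted p = 0.0535) and passed it without replicate 1 of MEKi/L (0.77, adjusted p = 0.03) or without replicate 1 (adjusted p = 0.037) or 3 (adjusted p = 0.019) of GSK3i/L.

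Dusp7 encodes MKP-X, a cytoplasmic ERK phosphatase (chr9:106368632-106375724, plus strand). Serum libraries held 4.71, 4.31 and 7.66 RPM, MEKi/L 11.3, 6.48 and 7.01 RPM, and 2i/L 9.68, 14.5 and 12.2 RPM. GSK3i/L held 11.2, 9.85 and 8.0 RPM at 8 days and 4.94 and 6.96 RPM at 24 days. In order of mean level (2i/L, GSK3i/L at 8 days, MEKi/L, GSK3i/L at 24 days, S/L) each neighbouring pair overlapped, while both of the first 2 groups lay above all serum libraries. Dusp7 was called higher than serum in 2i/L (1.15 ± 0.28, adjusted p = 0.00299) and in GSK3i/L (0.84 ± 0.28, adjusted p = 0.0383), which is 2.23-fold and 1.79-fold. With the score in the fit these differences were 0.39 (adjusted p = 0.43) and 0.50 (adjusted p = 0.15), and in GSK3i/L the call ended in 10 of 26 alternatives, including without replicate 1 of GSK3i/L (0.72, adjusted p = 0.13) and without replicate 2 of S/L (0.68, adjusted p = 0.13). MEKi/L against serum was not called (0.57, 95% interval −0.03 to 1.18). It was called without replicate 3 of S/L (0.83, adjusted p = 0.043).

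Dusp10 encodes MKP-5, a phosphatase of JNK and p38 (chr1:184013302-184075636, plus strand). It overlaps 1700056E22Rik on the other strand, and whether reads were counted by strand is not given in the sources used here, so its reads cannot be told apart from those of that gene. Its levels were 1.62, 1.81 and 1.77 RPM in S/L, 2.35, 1.94 and 1.71 RPM in MEKi/L, and 3.66, 4.03 and 2.51 RPM in 2i/L. GSK3i/L held 2.28, 4.59 and 2.63 RPM at 8 days and 1.97 and 1.32 RPM at 24 days. 2i/L and 8-day GSK3i/L both lay above the serum libraries and overlapped each other. Dusp10 was called higher in 2i/L than in serum (0.95 ± 0.32, adjusted p = 0.0187), and that call ended under median centring (0.64, adjusted p = 0.1), trimmed mean scaling (0.66, adjusted p = 0.087) and the score (1.00, adjusted p = 0.15), and without replicate 1 (adjusted p = 0.058) or 2 (adjusted p = 0.076) of 2i/L or replicate 1 of S/L (adjusted p = 0.051). GSK3i/L against serum missed the threshold (0.80 ± 0.32, adjusted p = 0.0694). Dusp10 and Dusp16, which share their preference for JNK and p38, differed in what was called: in MEKi/L, Dusp16 was 3.46-fold above serum, and Dusp10 was not separated from it (0.20, 95% interval −0.49 to 0.88). The difference between the genes was not tested.

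By comparison, 3 of the 9 genes were called between MEKi/L and GSK3i/L at 8 days, 2 lower (Dusp4 and Dusp6) and 1 higher (Dusp16), where 17.8% of all tested genes were called, 5.65% lower and 12.2% higher. Between 2i/L and GSK3i/L, 4 were called, with Dusp4, Dusp5 and Dusp6 lower and Dusp16 higher, against 27.8% of all tested genes (8.02% lower, 19.8% higher). Between 2i/L and MEKi/L, 2 were called, Dusp5 and Dusp6, both lower, against 12.9% (6.11% lower, 6.81% higher). The balance of all calls depended on scaling. The share of calls that were higher was 68.3% in MEKi/L against GSK3i/L and 50.1% to 57.3% under 3 other scalings. It was 71.2% in 2i/L against GSK3i/L and 37.9% to 54.7% under the others, and 52.7% in 2i/L against MEKi/L and 38.3% to 53.9% under the others. The called differences of Dusp4, Dusp5, Dusp6 and Dusp16 in these 3 comparisons kept their direction and call under each of those scalings. At 8 days the MEK inhibitor and the column treatment coincide. The 24-day group avoids this but holds only 2 libraries and differs in culture time and in the long-minus-short score. Its score lay between −4.12 and −3.52, against −2.4 to 0.22 in MEKi/L and −0.2 to 0.04 in 2i/L. In that substitution the inhibitor, the culture time and the score cannot be told apart. Within the plain columns, with GSK3i/L at 24 days in place of 8 days, Dusp4 was lower by −2.83 in MEKi/L (adjusted p = 0.00026) and by −2.96 in 2i/L (adjusted p = 0.00013). There Dusp6 was lower by −1.04 (adjusted p = 0.014) and −1.93 (adjusted p = 0.0002), and Dusp16 was higher by 2.46 (adjusted p = 1.7e-05) and 2.01 (adjusted p = 7.3e-05). In that setting 2i/L was also higher in Dusp1 (0.93, adjusted p = 0.0046), Dusp7 (1.03, adjusted p = 0.013) and Dusp10 (1.05, adjusted p = 0.022). Of all 14980 tested genes, 5947 were called higher there and 2716 lower in 2i/L, with a median of 0.38. In MEKi/L 4471 were called higher and 1667 lower, with a median of 0.29. Fibroblast markers, high in the 8-day GSK3i/L libraries, summed to 6.91 to 8.01 RPM in the 24-day ones, with Col1a2, Col3a1 and Prrx1 at 0.

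Against serum, 6 of the 9 genes were called in MEKi/L (5 lower, 1 higher), where 40.8% of all tested genes were called (14.7% lower, 26.1% higher). In GSK3i/L 5 were called (3 lower, 2 higher) against 31.1% (14.4% lower, 16.8% higher). In 2i/L all 9 were called (5 lower, 4 higher) against 63.6% (24.4% lower, 39.1% higher). These counts include Dusp2, whose direction the filter fixed. With the filter at a mean of 2 RPM, which drops it, 5 of 8 were called in MEKi/L (4 lower, 1 higher), 4 of 8 in GSK3i/L (2 lower, 2 higher) and 8 of 8 in 2i/L (4 lower, 4 higher). Of the 12020 genes tested at that filter, 1752 were called lower and 3282 higher in MEKi/L. The numbers were 1640 and 2061 in GSK3i/L, and 2809 and 5213 in 2i/L. The share of calls that were higher was 64.0% in MEKi/L, and 50.6% to 54.2% under 3 other scalings. In 2i/L it was 61.6%, and 46.3% to 53.5% under the others. The median of all tested genes was 0.17 in MEKi/L and 0.28 in 2i/L on the deposited scale. With the score in the fit, 4 of the 9 stayed called in 2i/L. Those were Dusp4, Dusp5, Dusp6 and Dusp9, all lower. Of all 14980 tested genes, that fit called 2884 higher and 1866 lower, beside 5863 and 3658 without the score. In GSK3i/L at 8 days the fibroblast and mesenchyme markers were higher than in S/L (14.6 to 16.8 RPM summed), and their part in the Dusp1 and Dusp7 differences was not tested.

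From 8 to 24 days of GSK3i/L, 3 of the 9 genes were called, all lower, where 17.5% of all tested genes were called, 13.2% lower and 4.3% higher. The share of calls that were higher was 24.6% and became 32.1% to 41.0% under other scalings. Dusp5 went from a mean of 2.80 to 0.782 RPM (−1.81 ± 0.33, adjusted p = 0.00519). This call ended without replicate 2 of the 24-day group (−1.62, adjusted p = 0.056), with the score in the fit (−1.39, adjusted p = 0.053) and with only these groups in the fit (adjusted p = 0.12). Dusp1 (−0.75 ± 0.24, adjusted p = 0.0445) and Dusp16 (−0.87 ± 0.27, adjusted p = 0.041) were close to the threshold and lost their calls in 20 and 19 of 26 alternatives, among them each fit without 1 library of the 24-day group or without replicate 1 or 2 of the 8-day group. Dusp4 (0.08, 95% interval −0.84 to 1.00) and Dusp9 (0.13, −0.51 to 0.77) were not separated between the days. The values of the 8-day columns look matched to a shared distribution and those of the 24-day columns do not, so time and column treatment cannot be told apart here.

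**Figure D4:**
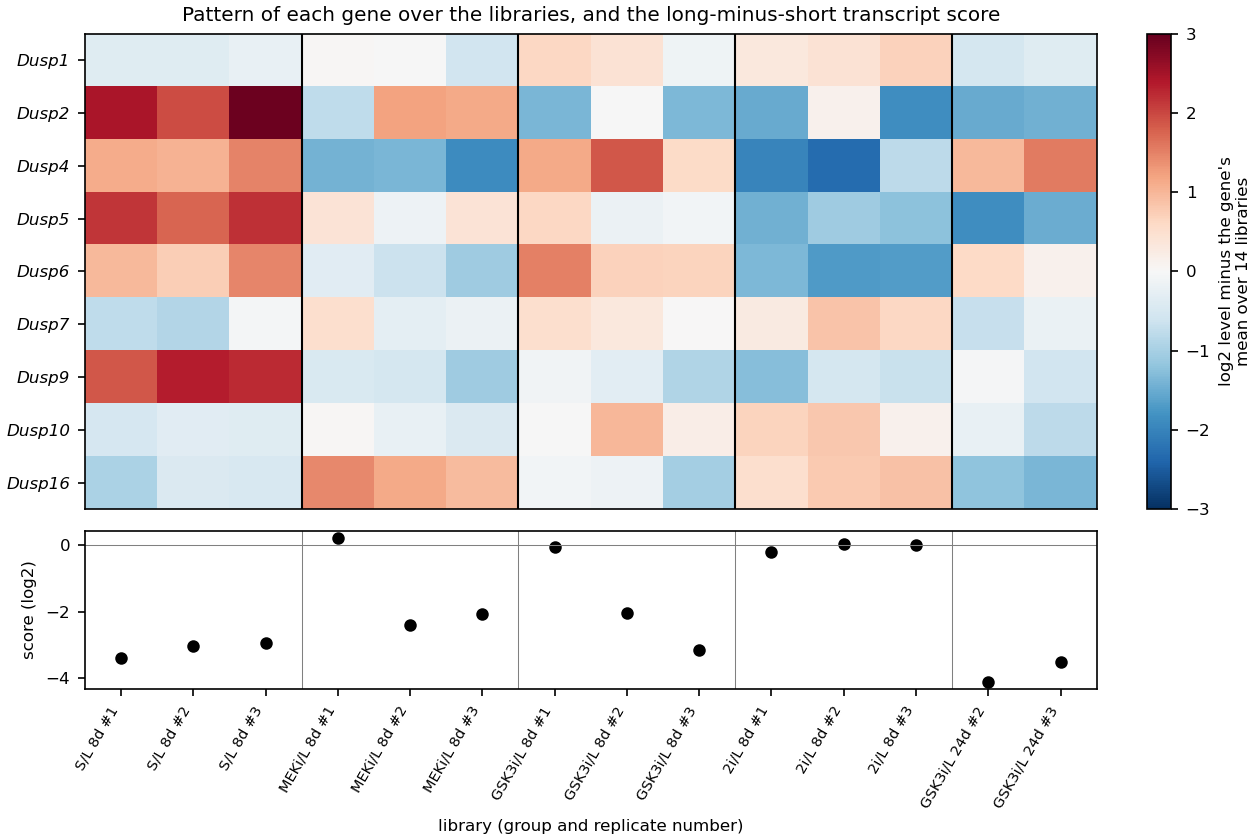
Upper panel, log2 level of each gene in each of the 14 libraries minus its mean over all of them (colour, log2 units); lower panel, the score of long minus short transcripts (log2 units) in the same libraries. Dusp4 and Dusp6 are low and Dusp16 high in the 6 libraries with the MEK inhibitor, while the score reaches from −2.4 to 0.22 in MEKi/L.

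Across the 14 libraries, Dusp4 and Dusp6 had the closest course among the 9 genes (Pearson's r = 0.87), followed by Dusp1 and Dusp7 (0.83) and Dusp2 and Dusp5 (0.81). Dusp4 and Dusp16 ran opposite to each other (−0.82). These values describe libraries that share group, depth and scaling. Among 9570 named genes with a mean of at least 5 RPM, the closest to Dusp4 was Spry1 (r = 0.968), an inhibitor of receptor tyrosine kinase signalling, followed by Celf4 (0.955) and Epha1 (0.949). Spry1 means were 16.8 RPM in S/L, 14.9 in GSK3i/L, 3.71 in MEKi/L and 2.61 in 2i/L. Closest to Dusp6 were Slc39a14 (0.972), Lef1 (0.964) and Lin28b (0.962), and Slc39a14 means were 43.4, 38, 10.2 and 2.58 RPM in the same order. Closest to Dusp16 were Tox4 (0.978), Dync1li1 (0.977) and Ctif (0.972). For Dusp5 they were Ina (0.953), Tro (0.945) and S1pr2 (0.944), and for Dusp9 they were Cacng7 (0.964), Leprel4 (0.943) and Plk3 (0.942). Dusp1 ran closest to Pmpca (0.959), Nckap1 (0.951) and Rps6ka2 (0.946), and Dusp7 to Nvl (0.949), Znrf3 (0.945) and Esyt1 (0.944). The lowest likeness was found for Dusp2, with Dohh (0.887), Dnajb6 (0.886) and Aass (0.884), and for Dusp10, with Abcf3 (0.922), Cops7b (0.883) and Nap1l4 (0.878).

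The substrates of these phosphatases were measured in the same libraries. Mapk3, which encodes ERK1, was called in none of the 7 comparisons. Its largest log2 difference was 0.64 ± 0.24 (2i/L against MEKi/L, adjusted p = 0.0887). Of 12 tested MAP kinase genes, 2 were higher and 2 lower in MEKi/L than in GSK3i/L. These were Mapk15 (1.10 ± 0.28), Mapk7 (0.84 ± 0.19), which encodes ERK5, Mapk8 (−0.66 ± 0.18), which encodes JNK1, and the atypical kinase gene Mapk4 (−1.59 ± 0.30). In 2i/L against GSK3i/L, 1 was higher (Mapk7, 0.77 ± 0.19) and 2 lower (Mapk4, −1.74 ± 0.30, and the p38 gene Mapk11, −1.14 ± 0.25). In 2i/L against MEKi/L, 2 were lower, the p38 genes Mapk12 (−1.39 ± 0.32) and Mapk11 (−0.96 ± 0.25). The share of all tested genes called in these comparisons was 17.8%, 27.8% and 12.9%. The medians of these lists were −0.09, 0.02 and 0.05, beside 0.09, 0.18 and 0.07 over all tested genes.

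Upstream of ERK stands the RAS-RAF-MEK cascade. None of its 15 tested genes was called between MEKi/L and GSK3i/L by limma (median 0.13), and 3 had an unadjusted p under 0.05. There 17.8% of all tested genes were called. In 2i/L against GSK3i/L, 5 were higher and 1 lower, including the exchange factor gene Sos2 (1.74 ± 0.46), the scaffold gene Ksr1 (1.56 ± 0.30) and the scaffold gene Lamtor3 (−1.12 ± 0.29). Here 19.8% of all tested genes were called higher and 8.02% lower. In 2i/L against MEKi/L, Ksr1 was higher (1.42 ± 0.30). Of 9 genes for kinases upstream of JNK, p38 and ERK5, 2 were higher in MEKi/L than in GSK3i/L, 6 in 2i/L than in GSK3i/L and 3 in 2i/L than in MEKi/L, and none was lower. Over all tested genes 12.2%, 19.8% and 6.81% were called higher in these comparisons. The medians of the list were 0.33, 0.54 and 0.29, beside 0.09, 0.18 and 0.07. Map3k5, which encodes the stress kinase ASK1, was higher by 1.66 ± 0.28 in MEKi/L and by 1.89 ± 0.28 in 2i/L than in GSK3i/L. Map2k3 (0.46 ± 0.15) was the other in MEKi/L, and Map2k6 (1.08 ± 0.19) had the next largest rise in 2i/L. Both encode kinases that activate p38. Map3k1 (1.06 ± 0.31) and Map2k5 (0.72 ± 0.20) had the largest rises in 2i/L against MEKi/L. 2i/L was also the group whose long-minus-short score was high in all 3 libraries, and the part of the score in these counts was not tested.

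Other genes that ERK induces include the Sprouty inhibitors and the immediate early genes. Of 21 tested, 8 were lower and none higher in MEKi/L than in GSK3i/L (median −0.38, beside 0.09 over all tested genes), and 9 were lower and none higher in 2i/L than in GSK3i/L (median −0.81, beside 0.18). Among all tested genes 5.65% and 8.02% were called lower in these comparisons, and 12.2% and 19.8% higher. Spry4, a Sprouty feedback inhibitor, was at means of 58.7 RPM in GSK3i/L, 0.657 RPM in MEKi/L and 1.00 RPM in 2i/L, lower by −6.73 ± 0.66 and −6.20 ± 0.66. The ETS factor gene Etv4 was lower by −3.12 ± 0.31 in MEKi/L, and the immediate early gene Egr1 by −2.92 ± 0.73 in 2i/L. Between 2i/L and MEKi/L, Fos was lower (−1.59 ± 0.37), as Dusp5 and Dusp6 were, whereas Etv4 (1.02 ± 0.31) and Spred1 (0.99 ± 0.19) were higher. Against serum, 12 were lower and 1 higher in MEKi/L (median −1.17, beside 0.17 over all tested genes, of which 14.7% were called lower and 26.1% higher). In GSK3i/L 6 were lower (median −0.32, beside 0.06, with 14.4% called lower), and in 2i/L 13 were lower (median −1.09, beside 0.28, with 24.4% called lower).

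Wnt and beta-catenin feedback genes are known to respond to GSK3 inhibition. Of 11 tested, 7 were lower and none higher in MEKi/L than in GSK3i/L (median −2.38), 1 was higher and 3 were lower in 2i/L than in GSK3i/L (median 0.37), and 5 were higher and 1 lower in 2i/L than in MEKi/L (median 0.77). In the same order, 5.65%, 8.02% and 6.11% of all tested genes were called lower, and 12.2%, 19.8% and 6.81% higher. Medians over all tested genes were 0.09, 0.18 and 0.07. Sp5 stood at 23.8 RPM in GSK3i/L, 23.2 RPM in 2i/L and 0.159 RPM in MEKi/L, and T stood at 12.3 RPM in GSK3i/L and 0.233 RPM in MEKi/L. Cdx1 was at 9.06 RPM in 2i/L and 0.0212 RPM in MEKi/L. With these means MEKi/L could not bring Sp5, T or Cdx1 to the filter of 0.5 RPM in 3 libraries. Among these media they could pass it only through those with CHIR99021. Their differences from MEKi/L are therefore a description and not read as tests, also where the counts and medians above include them. Lef1 was lower in 2i/L than in GSK3i/L (−3.78 ± 0.33) and than in MEKi/L (−1.40 ± 0.33), the order seen for Dusp6. Nkd1 was lower (−1.94 ± 0.54) and Tcf7 higher (0.78 ± 0.26) in 2i/L than in GSK3i/L.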

How the data were processed

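RNA values came from 14 libraries of 5 groups. The authors deposited 1 table of log2 RPM per gene with GRCm38 coordinates. HISAT2, Trim Galore 0.6.5, Bismark 0.22.3 and GRCm38 are named in the submitters' processing notes. How reads were counted per gene is not stated there. In 8 columns 99.96% to 99.99% of values were whole reads (within 0.02 of a read). The values of the 6 others look matched to a shared distribution, which can hide a shift of all genes. No label or header states this. Low read numbers there were recovered from value ranks, up to 300 reads. Bisulfite values were not analysed here.

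limma 3.58.1 (R 4.3.3; trend, robust) was fitted to the deposited log2 values of all 14 libraries with group as the only term, over 14980 genes with 0.5 RPM in at least 3 libraries, and Benjamini-Hochberg adjustment ran over all of them. All 9 members are described. Genes of like pattern (3 per member) were ranked by Pearson's r, and list genes named are the called ones with the 2 largest rises and falls between serum-free media. Dusp8 and Mapk3 were singled out after their values were seen. Members and lists were chosen with earlier results of these data known. The labels do not say that a replicate number marks a shared batch. Deviations of same-numbered libraries from their group means correlated over 0.1 in every pair between MEKi/L and 8-day GSK3i/L (0.669, 0.115 and 0.401). The numbers were therefore read as a pairing of those groups only, from the data alone. However, replicate 2 of MEKi/L correlated more with replicate 3 of 8-day GSK3i/L (0.38) than with its own number. The main fit and its p values do not use the pairing, which entered only through the replicate block. That block used the numbers of all 14 libraries in the same fit. It therefore applied them in every comparison, also where the data gave no ground for a pairing. Alternatives covered scaling, filters, pseudocount, variance model, replicate block, score covariate, a 2-fold rule and leaving out each library.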

Additional observations from a re-analysis of the deposited data

How the results depend on the processing

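Of 63 pairs of a gene and a comparison, 32 were called (3 of them Dusp2 against serum, where the filter fixed the direction), and 19 of these kept their call under every alternative run. Of 31 uncalled pairs, 10 were called and 17 changed sign under some alternative. Over 1649 values of single genes under an alternative, 1539 stayed on the same side of the threshold with no called value changing sign, 90 lost the call, 19 gained it and 1 called value changed sign: Dusp5 in 2i/L against GSK3i/L, at 0.43 with the 24-day libraries in place of the 8-day ones.

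GSK3i/L against S/L had 5 genes called, and 3 with no filter on low values, with only the 2 groups compared, with the score as covariate, with the 2-fold rule and without both replicate 1 libraries of MEKi/L and 8-day GSK3i/L. 2i/L against S/L had 9, and 4 with the score. Over all tested genes that comparison had 9521 calls, and 4750 with the score. 2i/L against MEKi/L had 2, and 1 with no filter, without trend and robust variances and with the 2-fold rule, and 5 without both replicate 1 libraries. GSK3i/L at 24 against 8 days had 3, and 1 with quantile normalization, median centring, trimmed mean scaling, no filter, no trend and robust variances, the replicate block, the 2-fold rule and without both replicate 1 libraries, and 0 with only the 2 groups compared and with the score. The 24-day substitution and the joint removal were chosen after seeing the data. The cause was not tested. Leaving out each library in turn gave 5 to 6 genes in MEKi/L against S/L, 3 to 5 in GSK3i/L against S/L, 8 to 9 in 2i/L against S/L, 3 to 4 in MEKi/L against GSK3i/L, 4 in 2i/L against GSK3i/L, 1 to 4 in 2i/L against MEKi/L and 0 to 3 in GSK3i/L at 24 against 8 days. In GSK3i/L against S/L the count was 3 without replicate 1 or 2 of either group. In 2i/L against MEKi/L it was 4 without replicate 1 of MEKi/L, and 1 without replicate 2 of MEKi/L, any 2i/L library or replicate 1 of S/L. From 8 to 24 days it was 0 without replicate 2 of the 24-day group, and 1 without its replicate 3, replicate 1 or 2 of the 8-day group, any 2i/L library or replicate 2 or 3 of S/L. A lone 24-day library is then assumed to vary like the other groups. The filter at a mean of 2 RPM drops Dusp2.

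Over all genes, calls ranged from 3810 to 7081 (main 6118) in MEKi/L against S/L, 2678 to 6748 (4666) in GSK3i/L against S/L, 4750 to 10638 (9521) in 2i/L against S/L, 1591 to 6138 (2670) in MEKi/L against GSK3i/L, 2461 to 8663 (4171) in 2i/L against GSK3i/L, 966 to 5505 (1936) in 2i/L against MEKi/L and 149 to 5885 (2616) from 8 to 24 days. The 6138 and the 8663 come from the 24-day libraries in place of the 8-day ones, which is a comparison of other libraries. With the 8-day libraries, MEKi/L against GSK3i/L reached 3088 higher and 1641 lower, with the score in the fit. 2i/L against GSK3i/L reached 4301 higher and 2437 lower, without both replicate 1 libraries. Outside MEKi/L and 8-day GSK3i/L the libraries share only a number: over all 26 same-numbered pairs the correlations ran from −0.314 to 0.669 (median 0.0368), and 7 of 14 libraries correlated best with their own number. With the replicate block the 3 calls of MEKi/L against GSK3i/L and the counts of 5 other comparisons did not move, and from 8 to 24 days 1 of 3 calls remained (Dusp5). Depth limits Dusp2, with 0 to 18 reads a library, and Dusp10, with 15 to 58. It also limits Dusp5 where that gene was lowest, with 9 and 10 reads in the 24-day libraries and 12 to 16 in 2i/L. Dusp4 is limited likewise with the MEK inhibitor, at 18 to 37 reads a library in MEKi/L and 16 to 55 in 2i/L.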

Other observations

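Among 13 tested dual-specificity phosphatase genes outside the 9, 4 were higher and 2 lower in MEKi/L than in GSK3i/L, 3 were higher and 2 lower in 2i/L than in GSK3i/L, and 1 was higher and 2 lower in 2i/L than in MEKi/L. Over all tested genes the shares called higher were 12.2%, 19.8% and 6.81%, and those called lower 5.65%, 8.02% and 6.11%. Dusp26 stood at a mean of 0.827 RPM in MEKi/L and 0.0428 RPM in GSK3i/L and was listed at 0 in 2i/L. Among these media only MEKi/L could bring it to the 0.5 RPM of the filter. Its differences are therefore a description and not read as tests, also where the counts above include them. Dusp13 stood at 1.45 RPM in MEKi/L, 0.59 RPM in 2i/L and 0.239 RPM in GSK3i/L. GSK3i/L, with that mean, could not bring it to the filter, so its differences from GSK3i/L are likewise a description. Dusp22 was lower than in GSK3i/L in both MEKi/L (−1.54 ± 0.36) and 2i/L (−1.28 ± 0.36). Dusp14 was higher in 2i/L than in GSK3i/L (1.44 ± 0.27). Dusp3, which encodes the small ERK and JNK phosphatase VHR, was lower in 2i/L than in GSK3i/L (−0.75 ± 0.20) and than in MEKi/L (−1.03 ± 0.20). Dusp11, an RNA phosphatase, was lower in MEKi/L than in GSK3i/L (−0.64 ± 0.14) and higher in 2i/L than in MEKi/L (0.90 ± 0.14).

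Dusp8, a phosphatase of JNK and p38 like Dusp10 and Dusp16, had a mean of 0.512 RPM in 2i/L at 8 days and of 1.20 to 1.42 RPM in the other 8-day groups. It was called in 1 of the 7 comparisons, lower in 2i/L than in serum (−1.40 ± 0.54, adjusted p = 0.0369 by limma). Of 5 tested genes for other phosphatases of ERK, such as subunits of protein phosphatase 2A, none was called by limma between the serum-free media at 8 days (0, 1 and 3 at an unadjusted p under 0.05 in MEKi/L against GSK3i/L, 2i/L against GSK3i/L and 2i/L against MEKi/L), and 2 were higher and 2 lower in 2i/L than in serum. Between those media 17.8%, 27.8% and 12.9% of all tested genes were called. In 2i/L against serum 39.1% were called higher and 24.4% lower.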
